A study of Triticum aestivum with 12 samples.

Results

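Line C20 of wheat, which overexpresses a form of TaSIP1 written TaSIP1ΔC in the labels, was compared with wild type (WT). The comparison set the 3 libraries of C20 against the 3 of WT, 6 of the 12 libraries of the series. It took in every gene with enough counts, 75788 of the 124118 in the count table. The spread behind its p-values was estimated from all 12 libraries in the same fit. Shoots, that is the upper part of seedlings without roots, were taken from untreated plants 2 months after germination, and 1 µg of RNA went into each library. The other 6 libraries came from lines C22 and C40, which carry the same construct by their labels. C20 is a single transgenic line. Neither the promoter of the transgene nor a gene identifier for TaSIP1 was found in the labels, so the level of the transgene was not analysed here. Nothing in the labels ties the replicates to separate plants. P-values therefore cover only the variation among the 12 libraries of the fit, which may be technical.

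Signals that run from the mitochondrion to the nucleus, known as retrograde signalling, let a cell adjust nuclear genes when respiration is disturbed. In Arabidopsis, alternative oxidase, an enzyme that passes electrons from ubiquinol straight to oxygen, is the usual readout, and some NAC transcription factors anchored in membranes switch it on. By its title, the study set TaSIP1 and a partner of the SRO family in this pathway and linked them to salt tolerance.

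Each of the 3 C20 libraries was set beside the range of the 3 WT libraries. Levels are given as CPM, that is counts relative to the size of a library after scaling by TMM factors, and a library was taken to lie above or below WT where it was at least 2-fold beyond the highest or lowest WT library in CPM + 0.5. C20 replicate 2 lay above WT in 8277 genes (10.9%) and below in 9055 (11.9%). C20 replicate 1 lay above in 4816 (6.35%) and below in 1742 (2.30%), and C20 replicate 3 above in 3061 (4.04%) and below in 1525 (2.01%). When each WT library was set against the other WT libraries in the same way, replicate 1 lay above in 260 genes (0.343%) and below in 38 (0.0501%), replicate 2 above in 190 (0.251%) and below in 96 (0.127%), and replicate 3 above in 187 (0.247%) and below in 1893 (2.50%). The last count is close to those of the genes below WT in C20 replicates 1 and 3. A range of 3 libraries is wider than one of the others alone, so the counts of WT and of C20 are not on equal terms.

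**Figure D1:**
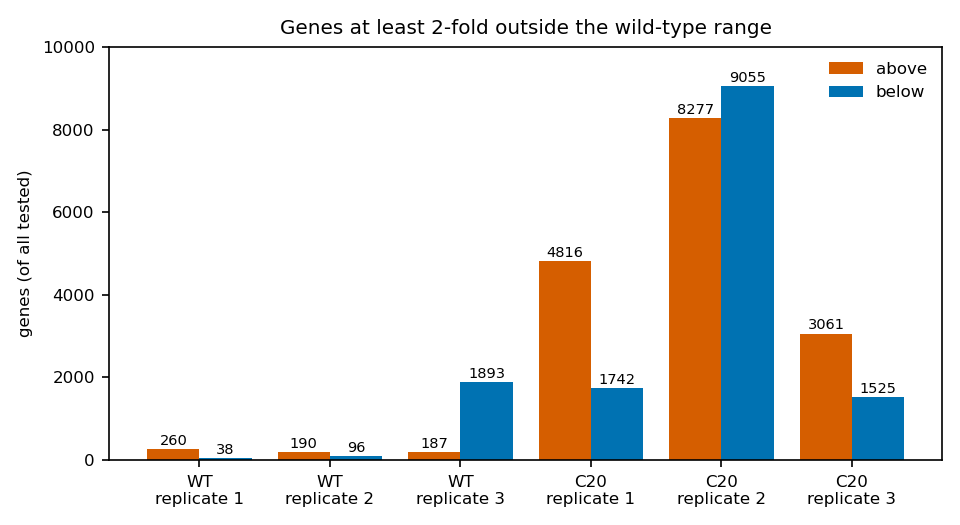
Number of genes, of 75788 tested, in which a library lay at least 2-fold above (orange) or below (blue) the wild-type range, for each WT library against the other WT libraries and for each C20 library against all 3 WT libraries. C20 replicate 2 has the most genes in both directions, 8277 above and 9055 below.

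The C20 libraries differed among themselves by more than those of WT. Across genes, log2 CPM correlated at r = 0.743 between C20 replicates 2 and 3, 0.888 between 1 and 3 and 0.891 between 1 and 2, against 0.953 to 0.978 within WT. These values run over genes, which do not stand for replicates. The median SD of a gene's log2 level, over 49676 genes with a mean of at least 2 CPM, was 0.437 within C20 and 0.193 within WT. Total counts were 27274952 to 29574512 in C20 and 37757184 to 43532179 in WT, so the depth differed less among the C20 libraries than between the groups. No pair of replicates agreed within sampling noise, with a chi-square per gene of 7.46 to 28.3 in WT and 39.7 to 174 in C20. C20 replicate 1 held the middle place among the 3 C20 libraries in 62.4% of genes. Within WT that place was held in 40.2%, 39.0% and 22.3% of genes by replicates 1, 2 and 3.

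All 3 C20 libraries lay within the 2-fold margin of WT in 54432 genes. C20 replicate 2 alone lay below in 7378 and alone above in 5153. Replicates 1 and 2 lay above together in 2811 genes, and replicates 1 and 3 in 1419. All 3 lay above WT in 227 genes (0.300%) and all 3 below in 509 (0.672%). These last sets were formed without a test, hold the genes 2-fold beyond WT in every C20 library, and come first below. In a further 172 genes replicate 2 lay below WT and replicate 3 above it, so that a mean over C20 describes neither.

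With the quasi-likelihood test of edgeR and Benjamini-Hochberg adjustment over all 75788 genes, 1862 genes (2.46%) were called at an adjusted p of at most 0.05. Of these 1089 (1.44%) were higher in C20 and 773 (1.02%) were lower. Counts called in the gene lists below are to be read beside these shares. The change was at least 2-fold in 1054 of the first and 655 of the second. In 1059 of the 1089 all 3 C20 libraries lay above all 3 WT libraries, and in 773 of the 773 they lay below. Of the 227 genes at least 2-fold above WT in every C20 library, 213 were called higher. Of the 509 at least 2-fold below it, 292 were called lower. Irrespective of any test, all 3 C20 libraries lay above all WT libraries in 10.5% of genes and below them in 15.9%. Adjusted p-values below come from this test, and a change with ± is a log2 fold change of C20 against WT with its SE.

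The number of calls moved with single libraries. It was 374 without C20 replicate 1, 3931 without C20 replicate 2 and 12749 without C20 replicate 3. Without WT replicates 1, 2 and 3 it was 99, 87 and 151. Over all genes, the fits without C20 replicates 1, 2 and 3 had 199, 2999 and 7817 rises and 175, 932 and 4932 falls. List counts from these fits below are to be read beside those totals. Rises led in the full set and without each C20 library, and falls led without WT replicate 1 (36 rose, 63 fell), 2 (26 and 61) or 3 (61 and 90). Falls also led in the authors' FPKM values tested with limma, with 853 rises and 1020 falls on log2(FPKM + 0.1) and 619 and 1316 on log2(FPKM + 1). With the 6 libraries of C20 and WT fitted alone, 12 genes were called. All 1862 genes kept their direction in every one of these fits in which they were tested. Passing with each of the 6 libraries left out in turn, a criterion added after the data were seen, left 75 genes, of which 54 were lower in C20 and 21 higher; 32 and 8 of them have a Pfam description.

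**Figure D2:**
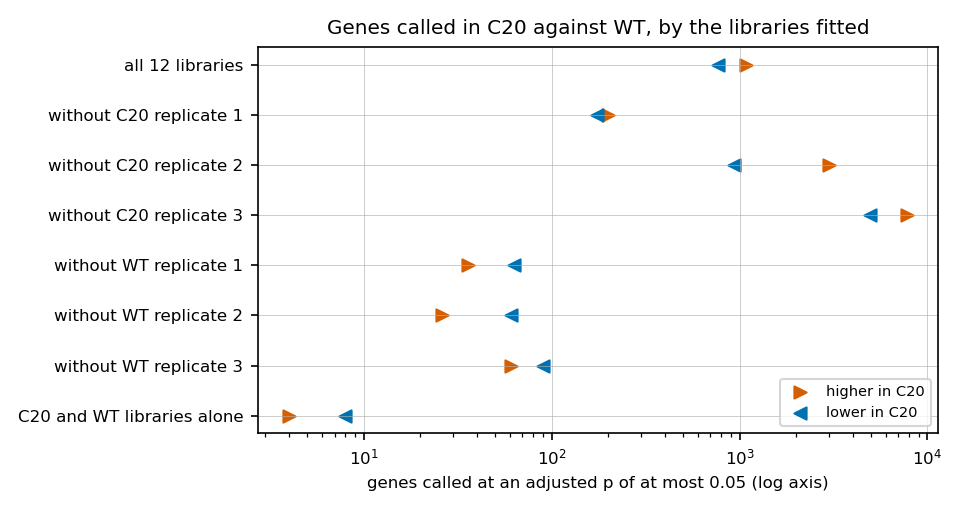
Number of genes called higher (orange, pointing right) and lower (blue, pointing left) in C20 against WT at an adjusted p of at most 0.05, on a log axis, with all 12 libraries, with 1 library left out, and with the C20 and WT libraries alone. The count is 1089 higher and 773 lower with all libraries, and falls lead without any 1 of the WT libraries.

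Of the 509 genes at least 2-fold below WT in every C20 library, 35 were cytochrome P450, 16 terpene synthase, 14 ZIP transporter, 13 haem peroxidase, 13 wax synthesis and 9 cellulose synthase genes, and these counts were not tested for enrichment. They include genes that were not called, since 292 of the 509 were called lower. The wax synthesis, ZIP, nicotianamine synthase, SPX, M28, CCT, aromatic lyase and chalcone synthase lists were drawn up after values were seen. So were those of GRAS, CAF1, PsbR, EF-hand, VQ, MCM, U-box, ABC transporter, protein kinase and pentatricopeptide repeat genes. The counts of these lists describe the genes and support nothing further. The largest fall among abundant genes that held without each library in turn was that of TraesCS3B01G022500 (3B, 9776149 to 9782832), which encodes a protein of unknown function (DUF1399) and was chosen after its values were seen. It had 179, 204 and 207 CPM in WT replicates 1, 2 and 3, and 6.68, 2.80 and 11.7 CPM in those of C20. The groups lay far apart, and the fall was 4.81 ± 0.47 on the log2 scale (adjusted p = 0.00257). A second DUF1399 gene, TraesCS3A01G022700 (3A, 12835921 to 12841532), also chosen after its values were seen, fell from 136 to 160 CPM in WT to 18.5, 10.4 and 21.7 CPM in C20 (log2 change -3.11 ± 0.27, adjusted p = 0.00142). Reads that fit both copies may have been shared, and near-identical homoeologs in wheat make any single copy uncertain.

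The summed levels of the ZIP list and of the SPX list lay below every WT library in all 3 C20 libraries. ZIP proteins carry zinc and iron into the cytosol. Of 49 tested ZIP genes, 13 fell and 0 rose, with a median log2 change of -1.61 against 0.03 over all genes, and 14 (28.6%) lay at least 2-fold below WT in every C20 library. TraesCS2A01G424200 (2A, 678666985 to 678669055) had 11.3, 9.23 and 8.13 CPM in WT and 2.56, 1.95 and 2.38 CPM in C20. All 3 C20 libraries were close to each other and below WT, and the gene fell by 2.06 ± 0.24 (adjusted p = 0.00585). TraesCS7A01G420600 fell from 4.55 to 6.16 CPM in WT to 0.110, 0.0295 and 0.315 CPM in C20 (adjusted p = 0.00814). Over the list the summed level was 767 to 875 CPM in WT and 348, 204 and 485 CPM in C20 replicates 1, 2 and 3. The ZIP list had 3, 15 and 27 falls without C20 replicates 1, 2 and 3, and 2, 2 and 3 without WT replicates 1, 2 and 3. Of 10 tested genes for nicotianamine synthase, which makes the chelator that moves iron and zinc through the plant, 2 fell and 0 rose (1, 1 and 4 falls without C20 replicates 1, 2 and 3, and 0 without 1 of the WT libraries). TraesCS7D01G413000, of the VIT family of vacuolar iron transporters, had 24.4, 11.2 and 13.6 CPM in WT and 0, 0.0590 and 0.135 CPM in C20. It was nearly absent from every C20 library (adjusted p = 0.0200), but it did not pass without C20 replicate 1 (adjusted p = 0.0766) or without WT replicate 1, 2 or 3 (adjusted p = 0.0691, 0.0675 and 0.0604).

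Genes with an SPX and a major facilitator domain encode, in Arabidopsis, carriers that store phosphate in the vacuole. Of the 8 tested, 4 fell and 0 rose, with 2 falls without C20 replicate 1 and 1, 1 and 2 without WT replicates 1, 2 and 3. TraesCS2D01G396700 (2D, 507828471 to 507833057) had 54.7, 48.5 and 53.1 CPM in WT and 10.6, 4.28 and 10.1 CPM in C20. It fell by 2.64 ± 0.31 (adjusted p = 0.00592), with C20 replicate 2 the lowest. TraesCS6D01G238500 fell from 21.4 to 34.1 CPM in WT to 1.83, 1.03 and 2.92 CPM (adjusted p = 0.0134), and did not pass without C20 replicate 1 (adjusted p = 0.0603) or WT replicates 1 and 2 (0.0633 and 0.0604). Small proteins with a heavy-metal-associated domain, which bind metal ions, went in both directions. TraesCS7B01G338200 had 282, 285 and 351 CPM in WT and 46.7, 13.8 and 62.1 CPM in C20, and TraesCS7A01G439300 had 274, 293 and 345 CPM in WT and 37.9, 11.2 and 57.7 CPM. Both lay below WT in each C20 library, with log2 changes of -2.90 ± 0.47 and -3.10 ± 0.50 (adjusted p = 0.0165 and 0.0162). TraesCS1B01G157000 rose, from 29.2 to 45.9 CPM in WT to 147, 50.9 and 207 CPM (adjusted p = 0.0424). Without WT replicate 1, 2 or 3 these 3 genes had adjusted p-values of 0.0608 to 0.169, and without C20 replicate 1 of 0.0611 to 0.101.

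Peptidases of family M28 with a transferrin receptor-like domain include, in Arabidopsis, AMP1, whose mutants have enlarged shoot meristems. Of 10 tested genes 4 fell and 0 rose, and the summed level was 302 to 332 CPM in WT and 73.8, 66.3 and 94.6 CPM in C20. Without WT replicate 1 there were 2 falls, and 3 without WT replicate 2, WT replicate 3 or C20 replicate 1. TraesCS3B01G310900 (3B, 499450466 to 499454313) had 163, 155 and 146 CPM in WT and 25.7, 25.2 and 38.0 CPM in C20, a fall of 2.38 ± 0.25 (adjusted p = 0.00418). TraesCS3D01G276900 fell by 2.36 ± 0.25, from 40.8 to 49.5 CPM to 7.41 to 11.2 CPM. TraesCS3A01G276700 fell by 1.66 ± 0.23 (adjusted p = 0.00899), and missed the threshold without WT replicate 1 (adjusted p = 0.0508). In these genes the C20 libraries lay close together.

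CCT motif genes include regulators of flowering time and the circadian clock. Of 72 without a tify domain, 8 fell and 0 rose, against 2, 7 and 16 falls without C20 replicates 1, 2 and 3 and 2 without any 1 of the WT libraries. TraesCS1D01G452200 had 38.3, 39.1 and 41.3 CPM in WT and 11.5, 7.76 and 10.2 CPM in C20 (log2 change -2.01 ± 0.21, adjusted p = 0.00418), and TraesCS1B01G478700 fell by 2.41 ± 0.28 (adjusted p = 0.00585). The hour of sampling is not given in the labels. Its part in the levels of such genes was not tested. Other falls that held with each library left out were those of the metacaspase type gene TraesCS5A01G548200, from 3.63 to 4.51 CPM to 0.0590 to 0.146 CPM (adjusted p = 0.00450), and of TraesCS4B01G222300, annotated as the alpha subunit of the general transcription factor TFIIF. The latter had 6.27, 3.39 and 5.59 CPM in WT and 0.110, 0.0295 and 0.0900 CPM in C20 (adjusted p = 0.00110). Both also passed with the 6 libraries fitted alone (adjusted p = 0.0386 and 0.0471), which no other gene named here did. TraesCS3B01G386600, for a respiratory burst NADPH oxidase that makes superoxide at the plasma membrane, fell from 20.6 to 24.4 CPM to 3.87, 4.60 and 6.97 CPM (adjusted p = 0.00624). An aminotransferase gene, TraesCS1B01G300600, fell from 52.2 to 66.7 CPM to 5.51, 5.31 and 11.9 CPM (adjusted p = 0.00592). A pair of genes with the Beta-Casp domain of RNA-processing nucleases fell too, TraesCS3A01G414700 with a log2 change of -2.66 ± 0.30 and TraesCS3B01G449800 with -3.29 ± 0.38. The last 4 genes were chosen after their values were seen.

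Terpene synthases, which build volatile and defensive terpenoids, showed changes in both directions. Of 59 tested genes 13 fell and 5 rose, with a median log2 change of -1.17, and 16 (27.1%) lay at least 2-fold below WT in all 3 C20 libraries. The summed level was 515 to 555 CPM in WT and 256, 114 and 338 CPM in C20. TraesCS6A01G067800 fell from 3.77, 5.62 and 4.01 CPM to 0.694, 0.236 and 0.270 CPM (log2 change -3.47 ± 0.44, adjusted p = 0.00740), and TraesCS2B01G061000 fell by 3.48 ± 0.45 (adjusted p = 0.00783). TraesCS5B01G014700 fell from 4.59 to 5.43 CPM to 0.219, 0.0295 and 0 CPM (adjusted p = 0.0124) and did not pass without WT replicate 1, 2 or 3 (adjusted p = 0.0633, 0.0660 and 0.0519). Without C20 replicate 1 the list had 6 falls and 0 rises, without C20 replicate 2 it had 14 and 7, without C20 replicate 3 there were 19 and 8, and without any 1 of the WT libraries 2 falls and 0 rises. Of 649 cytochrome P450 genes, which oxidise terpenoids and many other metabolites, 21 (3.24%) fell and 9 (1.39%) rose. Among all genes 1.02% fell and 1.44% rose, so the rises were near the share over all genes. TraesCS3D01G077400 had 18.1, 27.6 and 30.8 CPM in WT and 0.365, 0 and 0.630 CPM in C20 (adjusted p = 0.00941; 0.0572 without WT replicate 2). The P450 list as a whole had a median log2 change of -0.19. Its falls were 9, 21 and 86 and its rises 1, 62 and 37 without C20 replicates 1, 2 and 3, and its falls were 3, 2 and 4 without WT replicates 1, 2 and 3.

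Cellulose synthase genes were low in C20 as a group of levels, with few calls. Of 72 tested, 3 fell and 0 rose, and the median log2 change was -0.49. With no margin, 24 lay below every WT library in all 3 C20 libraries, against 15.9% of all genes. At least 2-fold below WT in all 3 were 9 (12.5%), against 0.672% of all genes. The summed level was 2959 to 4186 CPM in WT and 1933, 2289 and 2184 CPM in C20, with no overlap. TraesCS5B01G221600 had 64.1, 82.8 and 50.4 CPM in WT and 10.4, 13.3 and 12.6 CPM in C20 (log2 change -2.44 ± 0.50, adjusted p = 0.0346). TraesCS4A01G355000 had 274, 299 and 242 CPM in WT and 128, 132 and 116 CPM in C20 (adjusted p = 0.0228). Neither passed without C20 replicate 1 (adjusted p = 0.103 and 0.0804) or without a WT library (0.0671 to 0.131). The list had 1, 3 and 11 falls without C20 replicates 1, 2 and 3 and 0 without 1 of the WT libraries. Among the most abundant falls were the ThiC genes TraesCS4B01G023800 and TraesCS4A01G290400, for the enzyme that makes the pyrimidine part of thiamine in the plastid. The first had 375, 385 and 357 CPM in WT and 140, 141 and 182 CPM in C20, and the second 341, 360 and 327 CPM against 140, 105 and 180 CPM. Both had a log2 change of -1.27 (adjusted p = 0.0281 and 0.0363), and neither passed without C20 replicate 1 (0.0959 and 0.101) or without a WT library (0.0885 to 0.136). In bulk shoots, fewer cells of a type and less RNA per cell cannot be told apart for any of these changes.

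**Figure D3:**
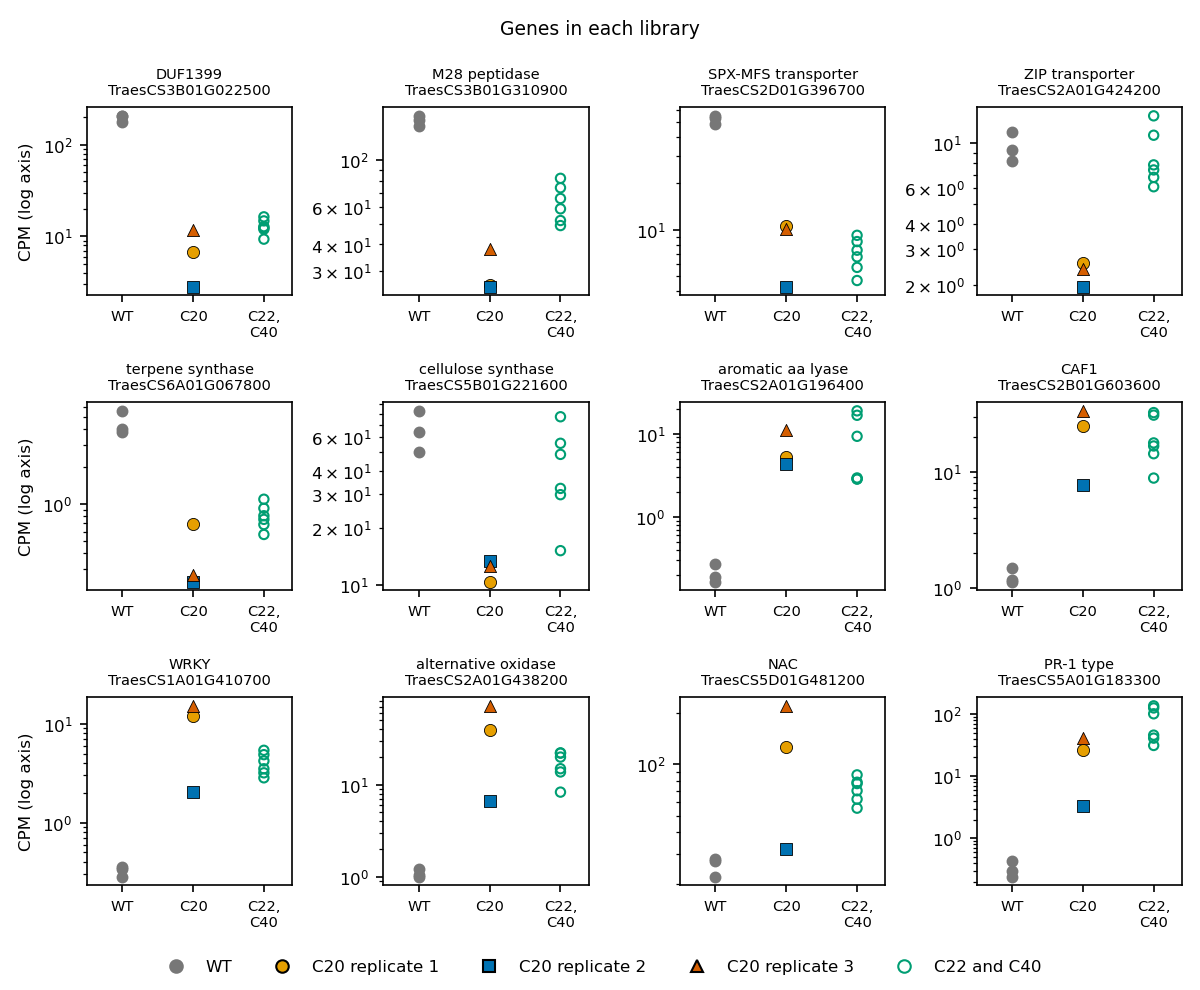
Level in CPM, on log axes, of 12 genes in each WT library (grey), C20 replicates 1 (orange circle), 2 (blue square) and 3 (red triangle) and the C22 and C40 libraries (open green circles). In the first 6 genes every C20 library lies below every WT library. In the last 6 every C20 library lies above every WT library, with replicate 2 the lowest C20 library in each.

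Genes at least 2-fold above WT in every C20 library were fewer than those 2-fold below, 227 against 509. Among called genes with all 3 C20 libraries beyond every WT library, 1059 were higher and 773 lower. Aromatic amino acid lyases, which open the phenylpropanoid pathway, had 40 tested genes, of which 7 rose and 0 fell, and the same number, 7, lay at least 2-fold above WT in all 3 C20 libraries. TraesCS2A01G196400 (2A, 166254570 to 166256576) had 0.165, 0.188 and 0.274 CPM in WT and 5.19, 4.28 and 11.2 CPM in C20, a rise of 5.02 ± 0.46 (adjusted p = 0.00202) that held without each library. TraesCS1B01G122800 rose from 1.02 to 1.88 CPM to 43.5, 11.5 and 77.5 CPM (adjusted p = 0.00740; 0.0559 and 0.0542 without WT replicates 1 and 2). The summed level of the list was 1038 to 1211 CPM in WT and 898, 849 and 1147 CPM in C20, with the groups overlapping. The list had 7, 14 and 9 rises without C20 replicates 1, 2 and 3, and 1, 1 and 2 without WT replicates 1, 2 and 3. Chalcone and stilbene synthases, which take the next branch towards flavonoids, had a median log2 change of -1.46 over 45 genes, with 1 rise and 0 falls.

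Among genes outside any list, TraesCS7A01G499400, for the SecE or Sec61-gamma subunit of the protein translocation channel, had 3.88, 3.80 and 4.22 CPM in WT and 13.4, 12.1 and 12.3 CPM in C20. The 6 values fell into separate tight groups, with a rise of 1.67 ± 0.18 (adjusted p = 0.00450). The RING finger gene TraesCS6D01G243200 rose from 0.206 to 0.412 CPM to 3.14, 4.63 and 2.70 CPM (adjusted p = 0.00418). A pair of Myb-like genes, TraesCS6D01G211400 and TraesCS6A01G224400, rose by 6.12 ± 0.74 and 5.15 ± 0.63 on the log2 scale. Their WT levels were at most 0.103 CPM, and C20 replicates 1, 2 and 3 had 4.75, 1.45 and 9.58 CPM of the first. These 4 rises held with each library left out, and the genes were chosen after their values were seen. Of 94 GRAS genes, regulators of growth and hormone response, 11 rose and 2 fell. TraesCS5D01G148000 had 1.13, 1.51 and 0.960 CPM in WT and 4.53, 5.37 and 4.63 CPM in C20 (adjusted p = 0.0123; 0.0700, 0.0583 and 0.0646 without WT replicates 1, 2 and 3). The CAF1 family, which shortens the tails of messenger RNAs, had 4 rises and 0 falls among 19 genes, where TraesCS2B01G603600 lay between 1.13 and 1.48 CPM in WT and between 7.67 and 33.6 CPM in C20 (adjusted p = 0.00783; 0.0579, 0.0562 and 0.0517 without the WT replicates). Of 7 genes for PsbR, a small protein of photosystem II, 3 rose, and they account for all 3 rises among 117 photosystem genes. TraesCS6D01G358900 rose from 5.42, 5.21 and 12.1 CPM to 70.1, 31.7 and 80.3 CPM (adjusted p = 0.0231), while the summed PsbR level was 2774 to 4464 CPM in WT and 2904, 968 and 5726 CPM in C20. This rise missed the threshold without C20 replicate 1 (adjusted p = 0.0696) and without WT replicates 1, 2 and 3 (0.104, 0.114 and 0.0548). Rises in these lists without C20 replicates 1, 2 and 3 were 4, 25 and 20 for GRAS, 1, 3 and 4 for CAF1 and 0, 3 and 3 for PsbR, and at most 1 in each without a WT library.

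In most rises C20 replicate 1 lay between the other C20 libraries, as it did in 62.4% of all genes tested. Of the 1089 genes called higher, 611 (56.1%) had their order from highest to lowest as replicates 3, 1 and 2, and 222 (20.4%) as replicates 2, 1 and 3. Among the 773 called lower these orders held in 284 (36.7%) and 70 (9.06%). Of 199 WRKY genes, transcription factors of immunity and stress, 41 (20.6%) rose and 0 fell, with a median log2 change of 1.01. The mean log2 level of the list lay 0.95 and 1.18 above the WT mean in C20 replicates 1 and 3. In replicate 2 it lay 0.04 below that mean, within the WT libraries. TraesCS1A01G410700 had 0.357, 0.283 and 0.343 CPM in WT and 11.9, 2.07 and 15.2 CPM in C20 (4.87 ± 0.64 higher, adjusted p = 0.00825). TraesCS2A01G161500, chosen after its values were seen, had 2.56 to 3.60 CPM in WT and 54.3, 12.7 and 100.1 CPM in C20 (adjusted p = 0.0108). TraesCS3D01G341100 rose from 10.3 to 17.3 CPM to 125, 31.3 and 215 CPM (adjusted p = 0.0201). All 3 lay above every WT library even in C20 replicate 2, the lowest, though TraesCS3D01G341100 stayed within the 2-fold margin there. Without WT replicate 1, 2 or 3 their adjusted p-values were 0.0519 to 0.107, and TraesCS3D01G341100 also missed the threshold without C20 replicate 1 (adjusted p = 0.0579). The list had 82 rises without C20 replicate 2, 50 without C20 replicate 3 and 13 without C20 replicate 1, and 0, 0 and 3 without WT replicates 1, 2 and 3.

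**Figure D4:**
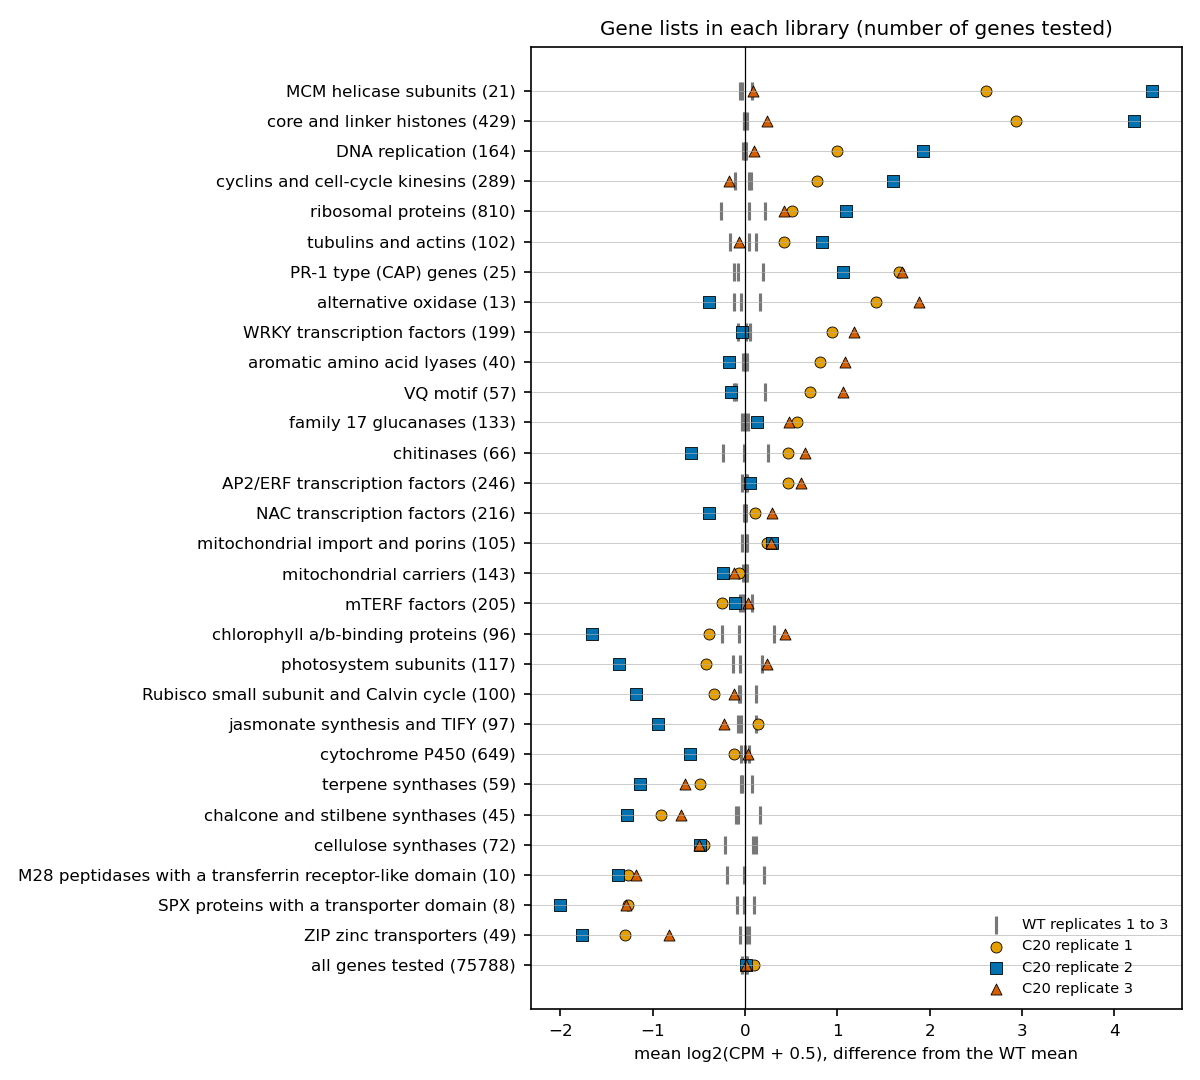
Mean log2(CPM + 0.5) of gene lists in each library, as the difference from the mean of the 3 WT libraries (grey ticks, WT; orange circle, blue square and red triangle, C20 replicates 1, 2 and 3), with the number of genes tested in brackets. Replicate 2 lies furthest right for cell division and furthest left for photosynthesis, replicate 3 furthest right for alternative oxidase and WRKY genes, and the 3 lie together for cellulose synthases and M28 peptidases.

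Several families of secreted pathogenesis-related proteins also had rises. Of 25 PR-1 type genes 7 rose and 0 fell, and their summed level was 6.02, 7.13 and 17.5 CPM in WT and 49.1 to 161 CPM in C20, lowest in replicate 2. TraesCS5A01G183300 had 0.302, 0.440 and 0.240 CPM in WT and 26.4, 3.34 and 40.6 CPM in C20 (6.14 ± 0.79 higher, adjusted p = 0.00783). The class I chitinase gene TraesCS5B01G403700 rose from 0.137 to 0.220 CPM to 11.8, 2.07 and 31.6 CPM (adjusted p = 0.00969), and the thaumatin gene TraesCS7A01G558500 from 0.345 to 0.549 CPM to 26.5, 4.81 and 60.3 CPM (adjusted p = 0.00825). For these 3 genes every C20 library lay above every WT library, with replicate 2 the lowest, and the adjusted p-values were 0.0519 to 0.0660 without 1 of the WT libraries. In the wider lists, 4 of 66 chitinase genes, 9 of 133 family 17 glucanase genes and 5 of 105 thaumatin, barwin and Bet v 1 genes rose and 0 fell. Without C20 replicates 1, 2 and 3 the rises were 2, 11 and 11 for PR-1, 2, 13 and 4 for chitinases, 4, 21 and 21 for glucanases and 1, 18 and 13 for the thaumatin list. Without a WT library they were 0 in each list, but for 1 chitinase gene without WT replicate 3. The chitinase list lay 0.58 below the WT mean in C20 replicate 2 and 0.47 and 0.65 above it in replicates 1 and 3. Among 946 NB-ARC immune receptors, 15 genes (1.59%) rose and 17 (1.80%) fell, against 1.44% and 1.02% of all genes. Without C20 replicates 1, 2 and 3 there were 3, 47 and 52 rises and 0, 18 and 78 falls, and without WT replicates 1, 2 and 3 there were 0, 0 and 3 rises and 0 falls. Of 97 genes for jasmonate synthesis and TIFY repressors, 0 rose and 2 fell, and the list lay 0.94 below the WT mean in C20 replicate 2, with replicates 1 and 3 at 0.14 and -0.22.

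Regulators linked to stress and calcium also had rises, in the order of C20 replicates 3, 1 and 2 for the genes named here. Of 246 AP2/ERF genes, which include ethylene and dehydration response factors, 17 (6.91%) rose and 3 fell. TraesCS1B01G231500 rose from 0.565 to 0.994 CPM to 13.9, 4.78 and 39.0 CPM (adjusted p = 0.0111). Of 234 genes with a pair of EF-hands, the calcium-binding fold of calmodulins, 12 rose and 3 fell. TraesCS5B01G227700 had 0.715, 0.408 and 1.41 CPM in WT and 22.2, 7.35 and 45.3 CPM in C20 (adjusted p = 0.00825), and TraesCS7A01G450400, chosen after its values were seen, rose from 5.80 to 6.59 CPM to 48.6, 15.3 and 62.5 CPM (adjusted p = 0.0188). The C2H2 zinc finger gene TraesCS7B01G065700 had 0 counts in all of WT and 5.11, 0.885 and 6.48 CPM in C20. Set against a limit of 3 counts for WT as a whole, it was at least 135-fold higher (adjusted p = 0.0111). Of 57 genes with a VQ motif, found in partners of WRKY factors, 6 rose and 0 fell, and 15 lay at least 2-fold above WT in replicates 1 and 3 but not in 2. Each of the 4 genes named in this paragraph missed the threshold without WT replicates 1 and 2 (adjusted p = 0.0559 to 0.0959). TraesCS1B01G231500 and TraesCS7A01G450400 missed it without WT replicate 3 (0.0551 and 0.0855), and TraesCS7A01G450400 without C20 replicate 1 (0.0630). Rises without C20 replicates 1, 2 and 3 were 2, 56 and 35 for AP2/ERF, 5, 40 and 20 for EF-hand and 0, 21 and 11 for VQ genes. Without WT replicates 1, 2 and 3 they were 0, 0 and 2, then 1, 0 and 3, and 0, 0 and 1.

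C20 replicate 2 carried high levels of histone and replication transcripts, C20 replicate 1 lower ones, and C20 replicate 3 stayed near WT. The summed histone level was 1533 to 1912 CPM in WT and 7316, 18044 and 2163 CPM in C20 replicates 1, 2 and 3. Of 429 histone genes, 324 lay at least 2-fold above WT in replicates 1 and 2 but not in 3, and 9 in all 3. For the core histone gene TraesCS6D01G040200 the counts were 1, 0 and 0 in WT and 1122, 3560 and 2 in C20. In all, 20 histone genes rose and 0 fell, and the number was 0 without C20 replicate 1, 9 without C20 replicate 2, 366 without C20 replicate 3 and 0 without any 1 of the WT libraries. With no filter on low counts it was 43. The MCM helicase subunits, which unwind DNA for replication, had summed levels of 3.99 to 5.80 CPM in WT and 93.8, 471 and 4.50 CPM in C20, and 0 of 21 passed, against 16 without C20 replicate 3 and 15 with DESeq2. TraesCS3A01G200400, chosen after its values were seen, had 0, 0 and 0.103 CPM in WT and 7.78, 32.9 and 0.495 CPM in C20 (adjusted p = 0.0515). Of 289 cyclin and kinesin genes 5 (1.73%) rose and 1 fell, with the rises near the 1.44% of all genes. Without C20 replicates 1, 2 and 3 there were 0, 2 and 122 rises. Histone copies are many and near-identical, so single copies are uncertain.

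Ribosomal protein genes were above WT in all 3 C20 libraries by the mean of log2 levels, at 0.51, 1.10 and 0.42 over the WT mean in replicates 1, 2 and 3, with WT replicates between -0.26 and 0.22. Of 810 tested, 16 (1.98%) rose, against 1.44% of all genes, 0 fell and the median log2 change was 1.00. With no margin, 465 lay above every WT library in all 3 C20 libraries, against 10.5% of all genes. At least 2-fold above WT were 19 in replicate 1, 460 in replicate 2 and 2 in replicate 3. TraesCS7B01G126800, for a mitochondrial ribosomal protein, had 1.37, 1.26 and 1.41 CPM in WT and 4.42, 7.91 and 2.83 CPM in C20 (adjusted p = 0.0276). It did not pass without C20 replicate 1 (adjusted p = 0.0684) or without WT replicates 1, 2 and 3 (0.108, 0.126 and 0.103). The list had 2, 7 and 384 rises without C20 replicates 1, 2 and 3, and 0 without 1 of the WT libraries.

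Photosynthesis transcripts were lowest in C20 replicate 2. The chlorophyll a/b-binding genes, which mark green leaf, summed to 88805, 81910 and 123260 CPM in WT and to 71784, 24849 and 127348 CPM in C20 replicates 1, 2 and 3. Replicate 2 was far below WT, replicate 1 a little below, and replicate 3 above. Of 96 genes 0 passed in either direction, and 71 lay at least 2-fold below WT in replicate 2 against 1 in replicate 1 and 0 in replicate 3. For the Rubisco small subunit and Calvin cycle list the counts below WT were 53 of 100 in replicate 2, 3 in replicate 1 and 0 in replicate 3, again with 0 called. The mean log2 level of this list nevertheless lay below every WT library in each C20 library. It was -0.34, -1.18 and -0.11 from the WT mean, against -0.07 to 0.12 in WT. With no margin, 27 of the 100 genes lay below all of WT in all 3 C20 libraries, against 15.9% of all genes. The small subunit gene TraesCS5D01G169900, chosen after its values were seen, had 7642, 7365 and 10286 CPM in WT and 5054, 1801 and 8645 CPM in C20 (adjusted p = 0.451). Whether age, light or developmental stage of the shoots differed between the C20 libraries was not tested.

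Single genes showed how far apart the C20 libraries could lie. Among 7351 described genes with a mean of at least 20 CPM, C20 replicate 2 was at least 2-fold below all 5 other libraries of C20 and WT in 1668 and above them in 127. The numbers were 21 and 4 for replicate 1 and 19 and 55 for replicate 3. Of glycosyl hydrolase family 32, which holds invertases and the enzymes of fructan synthesis, TraesCS7D01G009400 had 9.37, 8.57 and 8.92 CPM in WT and 95.0, 217 and 1.48 CPM in C20, and TraesCS4A01G485400 had 17.9, 20.7 and 21.3 CPM in WT and 111, 266 and 2.11 CPM in C20. Replicates 1 and 2 lay above WT and replicate 3 below it, and neither gene passed (adjusted p = 0.102 and 0.161). Another, TraesCS7A01G009800, chosen after its values were seen, had the same pattern with 110, 243 and 2.25 CPM in C20. The peroxidase gene TraesCS6B01G063800 was at 66.1 and 72.9 CPM in C20 replicates 1 and 3, within the 49.6 to 80.3 CPM of WT, and at 1.62 CPM in replicate 2. The glycosyltransferase gene TraesCS6A01G018000 was at 174 CPM in replicate 3 alone, against 14.3 to 21.2 CPM in WT and 56.8 and 10.7 CPM in replicates 1 and 2. TraesCS4A01G304400, of the fatty acyl reductase type that makes wax alcohols, stood out in replicate 1, with 102 CPM against 33.3 and 27.8 CPM in replicates 2 and 3 and at most 14.1 CPM in WT. TraesCS3D01G545200, for an acyltransferase type protein, was lowest in replicate 1 at 1.79 CPM, but WT itself ran from 11.5 to 83.1 CPM. The wax synthesis gene TraesCS6B01G423900, chosen after its values were seen, was at 33.7 to 67.2 CPM in WT and 6.90, 9.12 and 1.26 CPM in C20, below WT in each C20 library without passing (adjusted p = 0.0534).

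**Figure D5:**
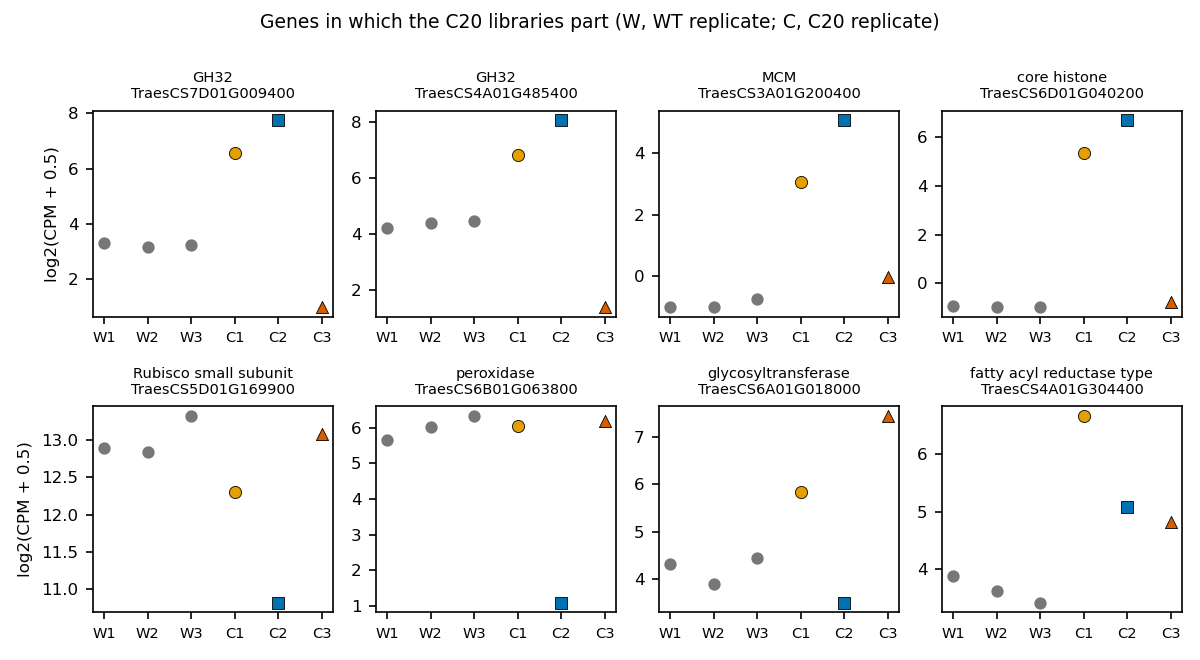
Level, as log2(CPM + 0.5), of 8 genes in WT replicates 1 to 3 (W1 to W3, grey) and C20 replicates 1 to 3 (C1 to C3, orange circle, blue square and red triangle). In the GH32 genes C20 replicates 1 and 2 lie above WT and replicate 3 below it, and in the peroxidase gene only C20 replicate 2 leaves the WT range.

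Of 13 tested alternative oxidase genes 5 (38.5%) rose, against 1.44% of all genes, while 0 fell and 8 did not pass. Their summed level was 134 to 161 CPM in WT and 308, 67.7 and 478 CPM in C20 replicates 1, 2 and 3. The 5 that rose lie close to each other by identifier on 2A, on 2B and, for 1 gene, on 2D, and near-identical copies may share reads. TraesCS2A01G438200 (2A, 689630253 to 689631640) had 1.04, 1.00 and 1.23 CPM in WT and 39.4, 6.58 and 71.3 CPM in C20 (5.15 ± 0.70 higher, adjusted p = 0.00933). TraesCS2A01G438300 rose by 4.33 ± 0.72 (adjusted p = 0.0178), TraesCS2D01G436200 by 3.81 ± 0.75 (0.0302), TraesCS2B01G459100 by 3.26 ± 0.58 (0.0225) and TraesCS2B01G459000 by 3.13 ± 0.62 (0.0302). In all 5, C20 replicate 2 was the lowest C20 library and still above every WT library, but at least 2-fold above in only 2 of them. The other 8 had log2 changes between -0.55 and 0.30. In 6 of them C20 replicate 2 lay at least 2-fold below WT, as in TraesCS2D01G542600, with 46.2 to 56.1 CPM in WT and 53.8, 12.6 and 77.1 CPM in C20, and TraesCS2A01G541400, with 22.1 to 28.5 CPM in WT and 23.4, 7.47 and 28.5 CPM in C20. None of the 5 rises passed without 1 of the WT libraries (adjusted p = 0.0548 to 0.132), and only TraesCS2A01G438200 passed without C20 replicate 1 (adjusted p = 0.0307; the other 4, 0.0547 to 0.0806).

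Of 216 NAC genes 10 rose and 5 fell, and the median log2 change was 0.12. TraesCS5D01G481200 (5D, 519277124 to 519278578), the most abundant NAC gene that rose, had 27.1, 21.9 and 27.8 CPM in WT and 127, 31.99 and 219 CPM in C20 (2.30 ± 0.52 higher, adjusted p = 0.0467). The similar genes TraesCS5B01G480900 and TraesCS5A01G468300, chosen after their values were seen, had 142, 42.9 and 198 CPM and 104, 34.4 and 179 CPM in C20, against 32.7 to 38.8 and 29.5 to 34.3 CPM in WT. Neither passed (adjusted p = 0.0566 and 0.0683). The call of TraesCS5D01G481200 was lost without C20 replicate 1 (adjusted p = 0.101), without WT replicates 1, 2 and 3 (0.139, 0.174 and 0.144) and with limma on FPKM (0.0770 and 0.0788). The NAC list had 0, 38 and 16 rises without C20 replicates 1, 2 and 3 and 0 without 1 of the WT libraries.

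Other mitochondrial lists showed few calls against WT. Of 105 genes for import proteins, porins and prohibitins 4 rose and 1 fell, and the mean log2 level of the list lay 0.23, 0.29 and 0.28 above the WT mean in C20 replicates 1, 2 and 3, outside the WT libraries, which lay between -0.03 and 0.02. Without C20 replicates 1, 2 and 3 the list had 1, 6 and 15 rises, and 0 without 1 of the WT libraries. Among mitochondrial carriers 0 rose and 1 fell. The mean log2 level of the carrier list was -0.06, -0.24 and -0.12 from the WT mean in C20 replicates 1, 2 and 3, with WT between -0.02 and 0.02. Of 44 BCS1 and OM66 type AAA ATPases, 205 mTERF factors, which regulate organelle transcription, and 18 genes with the RST domain of SRO and TAF4 proteins, 0 passed in either direction. Sodium and potassium transporters, which bear on salt tolerance, had 1 rise and 3 falls among 125, and aquaporins 0 of 84. The mean log2 level of the sodium and potassium list was -0.18, -0.60 and -0.12 from the WT mean in C20 replicates 1, 2 and 3, with WT between -0.03 and 0.05. For the RST list it was -0.17, -0.33 and -0.19, with WT between -0.04 and 0.06. In the AAA ATPase, mTERF and aquaporin lists the C20 libraries did not all lie on 1 side of WT. A missing call does not show that levels were alike.

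C20 was also set against the mean of C22 and C40 in the same fit, to see where its change differed from that of the other lines. Here 1728 genes (2.28%) were called, 991 (1.31%) higher in C20 and 737 (0.972%) lower. The count was 189, 7037 and 622 without C20 replicates 1, 2 and 3. The ZIP gene TraesCS2A01G424200 had 6.09 to 13.7 CPM in the other lines, overlapping WT, and differed in C20 by a log2 value of -1.90 ± 0.22 (adjusted p = 0.00760; at most 0.0335 without 1 C20 library). TraesCS4B01G222300, of the TFIIF type, had 0.289 to 19.9 CPM in the other lines and differed in C20 by a log2 value of -4.90 ± 0.47 (adjusted p = 0.00361). The CCT gene TraesCS2B01G140300 had fallen in C20, from 14.8 to 21.3 CPM to 6.85 to 8.05 CPM, but was lower still in the other lines, at 1.40 to 2.84 CPM, so that C20 was higher than they were by 1.81 ± 0.19 (adjusted p = 0.00459). Its call against WT was lost without C20 replicate 1 (adjusted p = 0.0804) and without WT replicates 1, 2 and 3 (0.0846, 0.109 and 0.0589). For the alternative oxidase gene TraesCS2A01G438200 the other lines had 8.30 to 22.1 CPM, and the difference from C20 did not pass (1.27 ± 0.49, adjusted p = 0.189).

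By list, C20 was higher than the other lines in 64 of 810 ribosomal protein genes (7.90%) and 12 of 199 WRKY genes (6.03%), and lower in 12 of 77 MADS-box genes (15.6%), 12 of 86 KNOX, YABBY and GRF genes (14.0%) and 20 of 946 NB-ARC genes (2.11%). MADS-box, KNOX and YABBY factors act in meristems and flowers. Against WT, 0 genes of the MADS-box list and 0 of the KNOX, YABBY and GRF list passed. The summed MADS-box level was 322 to 387 CPM in WT, 302 to 368 CPM in C20 and 454 to 604 CPM in the other lines. Without C20 replicate 1 the list counts fell to 3 ribosomal, 0 WRKY, 1 MADS-box, 5 KNOX, YABBY and GRF and 2 NB-ARC genes, and without C20 replicate 3 to 3, 0, 2, 8 and 5. Without C20 replicate 2 they were 95 ribosomal, 68 WRKY, 14 MADS-box and 17 KNOX, YABBY and GRF genes, and 48 NB-ARC genes were then higher and 47 lower. Of 105 genes for mitochondrial import proteins, porins and prohibitins, 10 (9.52%) were higher in C20 than in the other lines and 1 was lower. Without C20 replicates 1, 2 and 3 those higher were 3, 9 and 3, and those lower 0, 1 and 2.

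Markers of other tissues did not set C20 apart as a group. The DUF588 genes, which include the root CASP family, had sums between 349 and 455 CPM in WT and between 382 and 398 CPM in C20, with 2 rises and 2 falls among 80. The pollen and seed families summed to 2571 to 3633 CPM in WT and 2678, 4392 and 3472 CPM in C20, with 1 rise and 1 fall among 132. In 167 genes WT had 0 counts and C20 a mean of at least 2 CPM. Of these 160 were highest in C20 replicate 2, 66 were histone genes, 75 had a count in every C20 library and 4 were called. In 1 gene C20 had 0 counts and WT at least 2 CPM. By chromosome, the share of genes called ran from 1.90% on 4A to 2.99% on 3D. Positions were read from the count table, and the genome build behind them was not named in the labels.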

How the data were processed

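RNA sequencing counts per gene were made by the authors with featureCounts 1.5.0-p3, per the submitters' processing notes, and the deposited counts were used as they stand. The aligner, the build and the use of strand (not given in the sources used here) leave overlapping or antisense genes uncertain. The deposited FPKM values, which carry a further scaling by the authors between libraries as their values show, served as an alternative only. Gene functions are the Pfam descriptions of the table, which cover 64.6% of the genes tested, and lists are word patterns on them.

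edgeR 4.0.16 (R 4.3.3) was run with TMM scaling, filterByExpr and 4 group means over all 12 libraries, and tested on simulated data. TMM factors were 0.730 to 1.24 in the 6 libraries. Alternatives used RLE size factors, other filters, DESeq2 1.42.0, limma 3.58.1, a replicate block and left-out libraries. Named genes were taken mostly by rule: the 10 largest changes in each direction with 2 CPM or more, the 5 most abundant, 3 per list with the lowest adjusted p, library extremes and genes at 0 in a group. Members and lists were chosen with earlier results of these data known. Counting floors cover counting error only.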

Additional observations from a re-analysis of the deposited data

Results flagged for a closer look

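Effects that differed between C20 and the mean of lines C22 and C40, tested in the same fit as a difference between groups, were found in 1728 genes. Of those named in the report, the log2 difference of C20 from the other lines was -1.90 for the ZIP gene TraesCS2A01G424200 (adjusted p = 0.00760 by edgeR) and -4.24 for the ZIP gene TraesCS7A01G420600 (adjusted p = 0.0165; 0.0629 without C20 replicate 1). It was -1.10 and -1.40 for the M28 peptidase genes TraesCS3B01G310900 and TraesCS3D01G276900 (adjusted p = 0.0327 and 0.0187), which did not pass without C20 replicate 1 (0.118 and 0.0664). The TFIIF type gene TraesCS4B01G222300 had -4.90 (adjusted p = 0.00361), and its levels in the other lines ran from 0.289 to 19.9 CPM.

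C20 was higher than the other lines by 1.81 on the log2 scale for the CCT gene TraesCS2B01G140300 (adjusted p = 0.00459). The WRKY gene TraesCS2A01G161500 had a difference of 2.06 (adjusted p = 0.0372; 0.0964 and 0.108 without C20 replicates 1 and 3). For the RING finger gene TraesCS6D01G243200 it was 1.58 (adjusted p = 0.0227; 0.0611 without C20 replicate 1). The peroxidase gene TraesCS6B01G063800 had 4.46 (adjusted p = 0.0292; 0.0827 and 0.0641 without C20 replicates 1 and 3), with 66.1, 1.62 and 72.9 CPM in C20 and 0.246 to 3.90 CPM in the other lines, so that C20 replicate 2 lay among those lines. With 3 libraries a group, single libraries were not tested as outliers.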

How the results depend on the processing

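All genes called in C20 against WT kept their direction in each alternative in which they were tested. These fits reuse the same libraries, so the shared direction is no separate support. The numbers called moved widely, and the cause was not tested. Against WT, DESeq2 called 11861 genes (7471 higher, 4390 lower), voom with sample quality weights 40438 (20420 and 20018), limma on log2(FPKM + 1) 619 higher and 1316 lower, and the 6 libraries alone 12 (4 and 8; 13063 at an unadjusted p under 0.05). The replicate block called 982 (541 and 441). Leaving out 1 library gave 87 to 12749 calls, 26 to 7817 higher and 61 to 4932 lower. Calls with every library left out in turn, added after the data were seen, were 75 (21 and 54). Against C22 and C40, DESeq2 called 6669 (3527 and 3142), the block 623 (330 and 293), voom 40451 (20606 and 19845), log2(FPKM + 0.1) 2700 with 1563 lower, and log2(FPKM + 1) 1428 lower. Leaving out 1 C20 library gave 189 to 7037, 127 to 5045 higher and 62 to 1992 lower. Same-numbered C20 and WT libraries correlated at -0.058, 0.241 and 0.319 in their deviations, so the numbers were not taken to pair them. Of 59 called genes named, 7 did not pass with the block and 35, 35 and 30 without WT replicates 1, 2 and 3.

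For the genes above and below the WT range in C20 replicates 1, 2 and 3, a margin of 1.5-fold gave 9313 and 6017, 14428 and 15948, and 5995 and 5202. A margin of 4-fold gave 1489 and 235, 2475 and 1743, and 948 and 170. With 2 CPM added the counts were 2456 and 843, 4830 and 5920, and 1851 and 566. On log2(FPKM + 0.1), 2913 genes lay below in replicate 1 and 3234 in replicate 3. RLE size factors and the filter of 1 CPM kept these counts within 1.5 times. Levels under 1 CPM rest on few counts.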

Other observations

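Further families are described by their counts, in lists partly drawn up after values were seen. Of 3193 protein kinase genes 81 (2.54%) rose and 34 (1.06%) fell in C20 against WT, beside 1.44% and 1.02% of all genes. Without C20 replicates 1, 2 and 3 the rises were 13, 368 and 275 and the falls 7, 48 and 215, and without WT replicates 1, 2 and 3 the rises were 2, 0 and 2 and the falls 1, 0 and 3. Of 145 U-box genes, a family of ubiquitin ligases, 9 rose and 0 fell (2, 18 and 12 rises without C20 replicates 1, 2 and 3, and 0, 0 and 1 without those of WT), and the mean log2 level of the list was 0.24, -0.33 and 0.36 from the WT mean in C20 replicates 1, 2 and 3. With no margin, 92 of 324 ABC transporter genes lay below every WT library in all 3 C20 libraries, against 15.9% of all genes. Of the 324 genes 0 rose and 11 fell. These calls were not in 1 direction with a library left out: there were 0, 14 and 13 rises and 3, 11 and 42 falls without C20 replicates 1, 2 and 3, and 0 rises and 0, 0 and 1 falls without those of WT. Among 120 wax synthesis genes 0 rose and 4 fell (0, 5 and 7 rises and 0, 9 and 15 falls without C20 replicates 1, 2 and 3, and 0 rises and 0, 2 and 0 falls without those of WT), with summed levels of 2144 to 2614 CPM in WT and 1568, 833 and 1445 CPM in C20.

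Small heat shock proteins, chaperones that hold unfolded proteins, summed to 443 to 554 CPM in WT and 290.3, 168 and 292 CPM in C20, with no overlap, while 3 of 64 genes rose and 1 fell. Pentatricopeptide repeat proteins, which process organelle transcripts, had 1 rise and 7 falls among 956 genes. Of 131 dehydrin and LEA genes, linked to drying tolerance, 5 rose and 2 fell. Expansins and xyloglucan transferases, which loosen cell walls, had 4 rises and 1 fall among 147 genes, with the list 0.51 and 0.88 above the WT mean in C20 replicates 1 and 2 and 0.15 below it in replicate 3. Without C20 replicates 1, 2 and 3, small heat shock proteins had 0, 2 and 8 rises and 1, 0 and 7 falls, and pentatricopeptide repeat proteins 0, 0 and 31 rises and 0, 5 and 81 falls. Dehydrin and LEA genes then had 0, 21 and 10 rises and 0, 5 and 13 falls, and expansins and xyloglucan transferases 1, 7 and 20 rises and 0, 1 and 4 falls. Without 1 of the WT libraries these 4 lists had 0 rises, and 0 falls but for 1 LEA gene without WT replicate 3. The cause was not tested.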
